A study of Mus musculus with 4 samples.

Results

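The transcripts of Ly6Clow and Ly6Chigh monocytes were compared in the spleen of WT mice, with 1 array of pooled RNA for each subset. For every probe set the log2 of the Ly6Clow signal over the Ly6Chigh signal was taken, so a positive value means a higher signal in Ly6Clow cells. Each of the 18194 genes on the array was represented by its brightest probe set, and the 7256 genes whose signal reached 100 on the brighter WT array were kept. The other 10938 genes lay under that minimum on both WT arrays. Of the kept genes, 7229 were called Present (detected above mismatch background) on the brighter array and 7146 on both. Near the minimum, Echdc1 entered with signals of 100.0 in Ly6Clow and 63.5 in Ly6Chigh, and Leo1 stayed out with 76.5 and 99.9 in that order.

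Mouse blood and spleen hold classical Ly6Chigh monocytes, which use the chemokine receptor Ccr2 to leave the bone marrow and enter inflamed tissue, and nonclassical Ly6Clow monocytes, which crawl along the inside of vessels. Ly6Clow cells largely derive from Ly6Chigh cells, and their formation and survival need the orphan nuclear receptor Nr4a1. Ly6C is the surface protein on which the fractions were sorted.

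The series measured 4 groups with 1 array each: WT Ly6Clow, WT Ly6Chigh, miR-146a-/- Ly6Clow and miR-146a-/- Ly6Chigh. The WT mice carried the strain label C57BL/6 and were called littermate controls, and the miR-146a-/- mice (KO), labelled B6(FVB)-Mir146tm1.1Bal/J, lack a microRNA that restrains Toll-like receptor signalling. Spleen cells were selected with CD11b beads and then sorted as CD11b+Ly6Clow or CD11b+Ly6Chigh, and the sort labels name no marker beyond CD11b and Ly6C. Each array held RNA pooled from several mice, so the spread between mice cannot be seen, and age and sex are not given in the sources used here. With 1 array per subset the WT comparison has no replicate check, no error and no p-value. The KO pair shares no array with the WT pair, and its ratios, from other pools and another genotype, are given beside the WT ratios. In pooled RNA, fewer cells of a type and less RNA per cell cannot be told apart.

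The sort marker followed the labels. The probe set annotated jointly to Ly6c1 and Ly6c2 had a signal of 169.3 in WT Ly6Clow cells, against 7083.1 in WT Ly6Chigh cells, a 41.8-fold lower value. In the KO pair it had 182.0 in Ly6Clow and 6505.3 in Ly6Chigh. Genes of the monocyte lineage as a whole were Present in both subsets. Csf1r, the receptor for the survival factor of monocytes, had signals of 9007.6 in Ly6Clow and 7690.3 in Ly6Chigh, and the lysosomal protein gene Cd68 had 4544.3 and 3529.0 in that order. Of 12 such genes of the lineage, 10 were not called by the 2-fold rule given below and 2 were called lower, beside 7.25% of all kept genes. The lower genes were Cd14 (260.0 in Ly6Clow and 1683.6 in Ly6Chigh) and Fcgr1 (400.4 and 1364.7). Between 46.8% and 48.6% of probe sets were Present on the 4 arrays. The ratio of 3 prime to 5 prime signal, which grows as RNA breaks down, was 1.42 for actin in WT Ly6Clow and 1.20 in WT Ly6Chigh, and 1.12 and 0.894 for Gapdh in that order. Its part in the subset differences was not tested. In the KO pair it did not run the same way for actin, at 1.23 in Ly6Clow and 1.28 in Ly6Chigh, and was 0.950 and 0.905 for Gapdh.

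Most kept genes differed little between the subsets. The median log2 ratio was -0.00, and the middle 50% of the genes lay between -0.37 and 0.33. A gene was called when it differed at least 2-fold and was Present on the brighter array. By this rule 385 of 7256 genes (5.31%) were higher and 526 (7.25%) lower in Ly6Clow. Without a minimum on the signal these counts were 750 and 904, and with a minimum of 500 they were 197 and 234. At least 4-fold differences were seen for 108 higher and 169 lower genes, and at least 16-fold differences for 16 and 13. In these counts a dim signal was replaced by the 95th percentile of Absent signals on its array, which was 27.8 on the Ly6Clow and 24.6 on the Ly6Chigh array. A fold that rests on such a replaced signal is written as at least that size, and this was so for 28 of the higher and 71 of the lower genes.

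**Figure D1:**
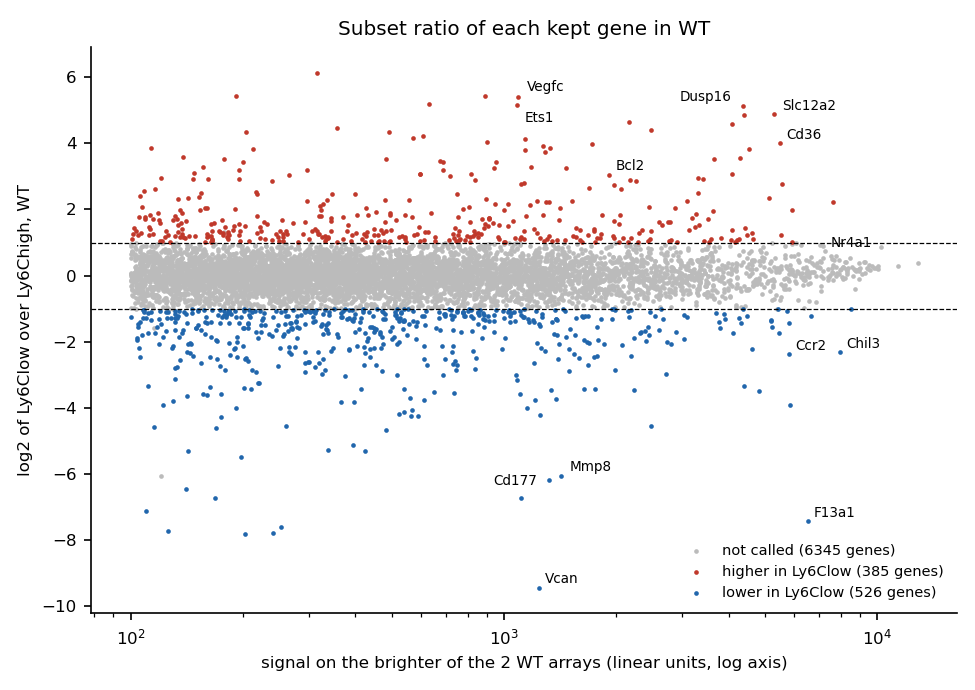
Log2 ratio of WT Ly6Clow over WT Ly6Chigh (y axis) against the signal on the brighter WT array (x axis, log scale) for the 7256 kept genes, 1 point per gene; dashed lines mark 2-fold. Called genes spread over the whole range of signals, and F13a1, Present on both arrays, lies at -7.42; Vcan lies at -9.43 with an Absent Ly6Clow signal, where only a bound of at least 44.7-fold holds.

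The 15 genes that stood highest in Ly6Clow cells include the growth factor gene Vegfc, the transcription factor genes Ets1 and Ikzf3 and the lipid genes Fabp4, G0s2 and Cd36. Vegfc, a growth factor for lymphatic vessels, had signals of 1091.7 in Ly6Clow and 26.1 in Ly6Chigh, a 41.8-fold higher value. The transcription factor gene Ets1 had 1081.3 in Ly6Clow and 30.5 in Ly6Chigh, 35.5-fold higher, and its other Present probe sets were at log2 3.89 and 6.22. Jade2, which encodes a subunit of histone acetyltransferase complexes, was at least 36.2-fold higher, with 891.3 in Ly6Clow and an Absent 20.7 in Ly6Chigh. Ccnd2, the cyclin D2 gene, was at least 25.6-fold higher, with 629.7 in Ly6Clow and 17.3 in Ly6Chigh. For these 4 genes the Ly6Chigh signal was between 17.3 and 30.5, close to or under the level of undetected probe sets.

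Dusp16, Slc12a2, Tgfbr3, Cd9 and Cd83 were Present in both WT subsets, with Ly6Chigh signals of at least 86.3. Dusp16, a phosphatase that switches off MAP kinases, had signals of 4355.4 in Ly6Clow and 123.3 in Ly6Chigh (35.3-fold). Slc12a2, a sodium, potassium and chloride cotransporter, had 5279.0 and 178.0 in that order (29.7-fold). Tgfbr3, the co-receptor betaglycan, had 2165.6 in Ly6Clow and 86.3 in Ly6Chigh (25.1-fold), and was Absent at 70.4 in KO Ly6Chigh. The tetraspanin gene Cd9 had 4070.8 and 168.5 (24.2-fold), and Cd83, a membrane protein that keeps MHC class II at the cell surface, had 2482.4 and 117.9 (21.1-fold), both with Ly6Clow first. The remaining genes among the 15 largest were Fabp4, G0s2, Dnah12 (an axonemal dynein heavy chain), Itgax, Ikzf3 (the transcription factor Aiolos) and Cd36, between 16.1-fold and 29.1-fold higher.

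The 15 genes lowest in Ly6Clow cells include the clotting factor gene F13a1, the matrix genes Vcan, Fn1 and Thbs1 and the receptor genes Ccr1 and Met. F13a1, the subunit of factor XIII that cross-links fibrin, had 38 in Ly6Clow and 6510.7 in Ly6Chigh, 171-fold lower. Vcan, a matrix proteoglycan gene, had an Absent 1.8 in Ly6Clow and 1242.2 in Ly6Chigh, at least 44.7-fold lower, and the log2 ratios of its further Present probe sets lay between -9.82 and -1.45. Mmp8, a collagenase, had 21.6 (Absent) in Ly6Clow and 1422.3 in Ly6Chigh, at least 51.2-fold lower. Cd177, a surface glycoprotein best known from neutrophils, had 18.1 (Absent) and 1322.1 in that order, at least 47.6-fold lower. Atrnl1, an attractin-like membrane protein gene, had 10.4 in Ly6Clow and 1108.1 in Ly6Chigh, at least 39.9-fold lower.

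Fn1, the fibronectin gene, stayed detectable in both subsets, with 388.3 in Ly6Clow and 5831.3 in Ly6Chigh (15.0-fold lower). Thbs1, which encodes the matrix protein thrombospondin 1, had 31.5 and 590.2 in that order (18.7-fold lower). The chemokine receptor gene Ccr1 had 34.0 in Ly6Clow and 567.5 in Ly6Chigh (16.7-fold lower). Met, the receptor for hepatocyte growth factor, was at least 18.8-fold lower, with an Absent signal in Ly6Clow and 564.5 in Ly6Chigh. Capg, an actin-capping protein gene, had 106.6 in Ly6Clow and 2481.6 in Ly6Chigh (23.3-fold lower), but its other Present probe set was at 0.09 on the log2 scale, so its probe sets disagree. Cd93, Slfn5, Olfm1, Ms4a8a and Ndrg1 completed the 15 and were between 13.5-fold and 18.5-fold lower, with the value for Olfm1 a bound.

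**Figure D2:**
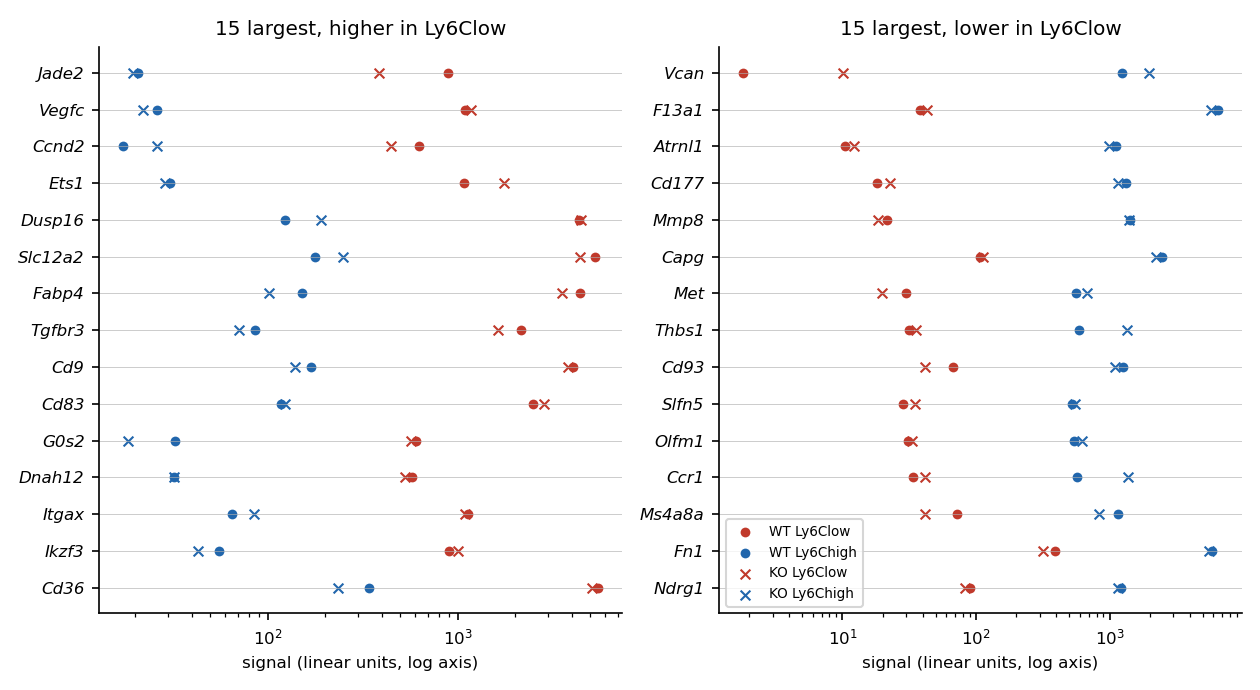
Signals (x axis, log scale) of the 15 genes with the largest positive (left) and negative (right) WT log2 ratio among called genes that reached 500 on the brighter array; circles are WT and crosses KO arrays, red Ly6Clow and blue Ly6Chigh. For each of the 30 genes, both Ly6Clow points lie on the same side of both Ly6Chigh points, with the narrowest gap in the WT pair for Ndrg1 (13.5-fold).

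Most genes listed as markers of Ly6Clow monocytes were called higher in Ly6Clow, by very different amounts. Of 18 such genes analysed, all were kept and 15 were called higher, beside 5.31% of all kept genes. Their median log2 ratio was 3.03. This list and that of the Ly6Chigh markers were chosen with earlier results of these data known, so their counts may be partly set by that choice. Pparg, a nuclear receptor of lipid metabolism, had signals of 1269.0 in Ly6Clow and 84.5 in Ly6Chigh (15.0-fold). Eno3, an enolase otherwise typical of muscle, had 4275.6 and 366.6 (11.7-fold) in that order. Fcgr4, an activating receptor for IgG, had 5558.9 in Ly6Clow and 811.6 in Ly6Chigh (6.85-fold). Spn, which encodes the sialomucin CD43, had 5134.7 and 998.4 (5.14-fold), and Treml4, a receptor of the TREM family, had 7616.6 and 1617.2, again with Ly6Clow first.

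The 3 markers that were not called include Nr4a1 itself. Nr4a1 had 7224.0 in Ly6Clow and 4329.8 in Ly6Chigh, a log2 ratio of 0.74. Cx3cr1, the fractalkine receptor by which the subset is often gated, was at 0.44, with 3633.1 in Ly6Clow and 2669.5 in Ly6Chigh, and the integrin gene Itgal was at 0.66. All were Present on both arrays, and the KO pair gave 0.77, 0.73 and 0.87 for Nr4a1, Cx3cr1 and Itgal.

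Of 17 analysed markers of Ly6Chigh monocytes, 13 were kept and 10 of these were called lower in Ly6Clow, beside 7.25% of all kept genes. Ccr2 had 1126.5 in Ly6Clow and 5788.8 in Ly6Chigh (5.14-fold lower). Chil3, a chitinase-like secreted protein, had 1603.7 and 7929.9 in that order (4.94-fold lower). Hp, the gene of the hemoglobin scavenger haptoglobin, was at -1.75 and Ms4a4c at -1.74 on the log2 scale. The redox enzyme gene Gsr (-0.37) and S100a4 (-0.46) were not called. Lyz2, the macrophage lysozyme gene, ran the other way at 0.54, with 8427.1 in Ly6Clow and 5786.9 in Ly6Chigh, and its near-identical copy Lyz1, which can share its signal, was at 0.39.

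**Figure D3:**
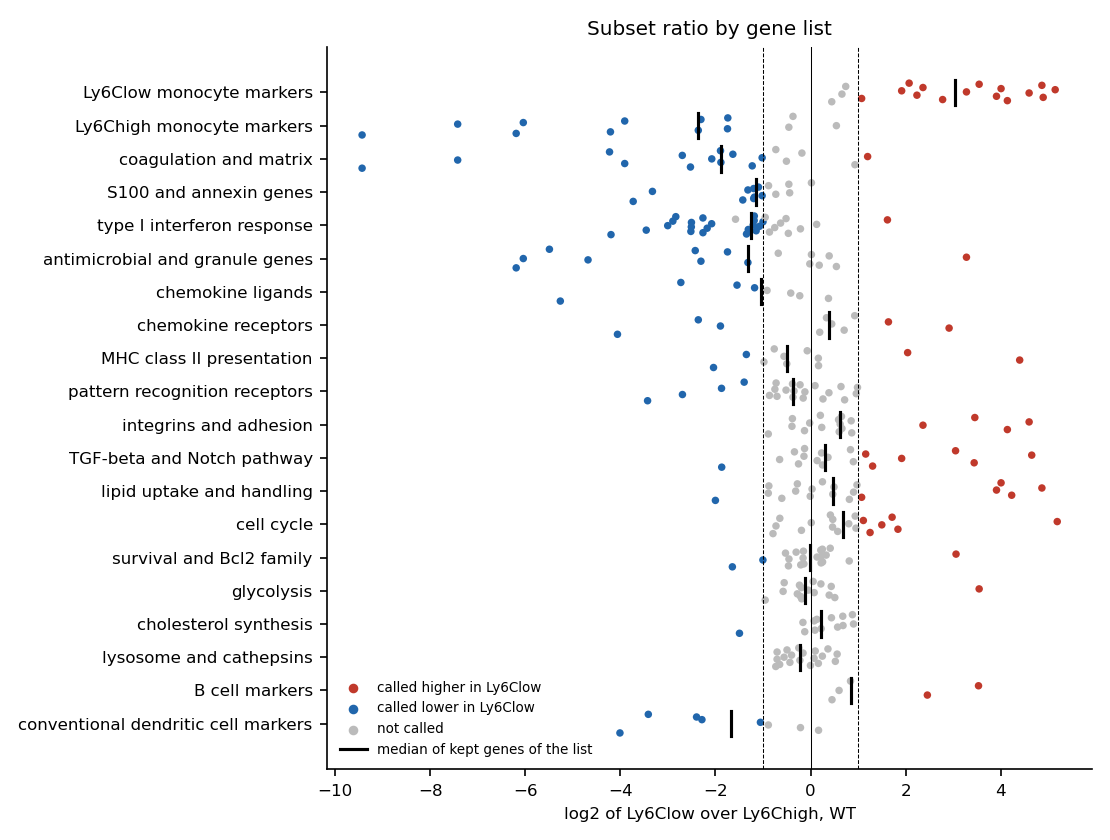
Log2 ratio of WT Ly6Clow over WT Ly6Chigh (x axis) for the kept genes of 20 gene lists (rows), 1 point per gene, with called genes in colour and a black bar at each list's median; dashed lines mark 2-fold and a gene may stand in several lists. The median lies at 3.03 for Ly6Clow markers, at -1.26 for type I interferon response genes and at -0.23 for lysosome and cathepsin genes, none of which was called.

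The promoters of the called genes were read for short motifs of transcription factors that act in monocytes. The windows ran from 250 bases before to 50 after the gene start, taken from RefSeq on GRCm38.p6, and each motif was searched on both strands, with matches of different motifs allowed to overlap. A window was found for 305 of the higher and 428 of the lower genes. The C/EBP core TTGCNNAA was present in 8.31% of windows of higher genes, 11.5% of windows of lower genes, 8.51% of those of all kept genes and 10.8% of all 32851 windows. The PU.1 motif GAGGAAGT was present in 5.38% of higher, 3.90% of lower and 3.60% of kept windows, and 3.20% of all windows. The interferon-sensitive pattern GAAANNGAA was present in 9.54% of higher, 12.6% of lower and 7.48% of kept windows, and 8.56% of all.

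The shares were 5.62%, 4.82%, 3.78% and 3.56% in the same order of sets for the KLF motif CCACACCC, and 3.67%, 6.12%, 3.44% and 5.20% for the AP-1 motif TGAGTCA. The NR4A response element AAAGGTCA was present in 2 windows of higher genes (0.489%) and 2 of lower genes (0.371%), against 0.948% of kept and 1.51% of all windows. The ETS motif ACCGGAAG was present in 1.96% of higher, 2.97% of lower and 5.25% of kept windows (2.30% of all). For the E2F motif TTTGGCGC these shares were 0.733%, 0.928% and 1.10%, with 0.514% of all windows. These are counts of letters, with no test.

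The promoters below are those of the called genes with the most matches in each direction among the largest differences and the subset markers. Each is 300 bases, 5′ to 3′ on the strand of the gene, with the matched motifs in capitals. Fcgr4 (chromosome 1, 171018676 to 171018975, plus strand) and Pparg (chromosome 6, 115421816 to 115422115, plus strand, 1 of 3 windows of the gene) were higher in Ly6Clow. Mmp8 (chromosome 9, 7558179 to 7558478, plus strand) and Slfn5 (chromosome 11, 82951852 to 82952151, plus strand) were lower. All coordinates are on GRCm38.p6.
Fcgr4: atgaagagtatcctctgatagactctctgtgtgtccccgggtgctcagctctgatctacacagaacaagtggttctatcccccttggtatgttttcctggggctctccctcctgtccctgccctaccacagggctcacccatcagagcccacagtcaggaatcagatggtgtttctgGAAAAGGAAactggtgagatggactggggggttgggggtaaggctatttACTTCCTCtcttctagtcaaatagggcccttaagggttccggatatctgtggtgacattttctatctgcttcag
Pparg: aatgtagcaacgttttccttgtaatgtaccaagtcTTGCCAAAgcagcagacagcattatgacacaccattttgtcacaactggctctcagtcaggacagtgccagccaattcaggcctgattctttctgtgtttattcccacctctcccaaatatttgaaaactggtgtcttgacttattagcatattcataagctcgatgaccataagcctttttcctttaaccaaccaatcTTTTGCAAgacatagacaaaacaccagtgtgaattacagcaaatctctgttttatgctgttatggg
Mmp8: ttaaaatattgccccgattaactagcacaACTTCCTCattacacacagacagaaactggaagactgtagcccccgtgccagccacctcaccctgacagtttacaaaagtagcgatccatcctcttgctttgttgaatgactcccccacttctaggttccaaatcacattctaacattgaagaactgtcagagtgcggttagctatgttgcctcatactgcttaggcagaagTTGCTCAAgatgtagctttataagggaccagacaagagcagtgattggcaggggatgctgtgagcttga
Slfn5: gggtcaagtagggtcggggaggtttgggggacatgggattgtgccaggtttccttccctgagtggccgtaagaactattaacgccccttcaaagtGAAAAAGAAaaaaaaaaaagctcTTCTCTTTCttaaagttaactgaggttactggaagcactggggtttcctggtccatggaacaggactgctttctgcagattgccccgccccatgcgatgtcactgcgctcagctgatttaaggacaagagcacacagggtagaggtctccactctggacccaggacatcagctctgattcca
The capitals in Fcgr4 are an interferon-sensitive pattern that begins 73 bases before the gene start and a PU.1 match on the minus strand 24 bases before it. Pparg has C/EBP matches 215 and 16 bases before the start. Mmp8 has a PU.1 match 221 and a C/EBP match 19 bases before it, so matches of the same factors stand at genes called in opposite directions. Slfn5 has a pair of interferon-sensitive patterns, on opposite strands, 155 and 132 bases before the start.

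Among the 39 lists, which differ in size, genes of the type I interferon response had the largest number of calls lower in Ly6Clow. By share of kept genes the Ly6Chigh markers (10 of 13) and the coagulation and matrix genes (12 of 17) had more. Several lists had lower medians, among them these 2 (-2.36 and -1.89) and the conventional dendritic cell markers (-1.67). Interferons act through Stat2 and its partners to switch on antiviral effector genes. All 30 analysed genes were kept: 20 were called lower, 1 higher and 9 not called, beside 7.25% lower and 5.31% higher of all kept genes. The median log2 ratio was -1.26, beside -0.00 for all kept genes. In the KO pair 20 were called lower and the median was -1.30, and 19 of the genes were called in the same direction in both pairs.

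Slfn5 and Slfn4, of the Schlafen family of regulators of cell growth and viral RNA, stood lowest in this list. Slfn5 had 28.5 in Ly6Clow and 522.7 in Ly6Chigh (18.3-fold lower), Slfn4 had 203.4 and 2232.4 (log2 -3.46) and Slfn1 was at -2.90 on the log2 scale, while Slfn2 was at -0.47 and not called. Usp18, which dampens signalling from the interferon receptor, had 134.3 in Ly6Clow and 1077.8 in Ly6Chigh (8.03-fold lower). The RNA-binding antiviral genes Ifit1, Ifit2 and Ifit3 were at -2.51, -2.52 and -2.83. Rsad2, the gene of viperin, had 246.1 in Ly6Clow and 1397.5 in Ly6Chigh.

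Factors that carry the interferon signal were also called lower. Stat2 was at -1.15, with 63.7 in Ly6Clow and 140.9 in Ly6Chigh, and Irf7 at -1.21. The RNA sensors Ifih1 (-0.86) and Ddx58 (-0.52) were not called. The oligoadenylate synthetase genes Oas2 (-1.31), Oas3 (-1.19) and Oas1a were called just past the 2-fold line, and Oas1a fell short of it after median centring. Ifitm1, a membrane protein that blocks viral entry, was the exception, with 809.5 in Ly6Clow and 264.2 in Ly6Chigh (log2 1.62), and Ifitm3 was at 0.13. In their promoters, 10 of 19 windows of the lower genes of this list (52.6%) held the GAAANNGAA pattern, as printed above for Slfn5, and 13 of 29 windows of all its kept genes did (44.8%). The list was made of genes known to respond to interferon, so this share describes how it was chosen.

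**Figure D4:**
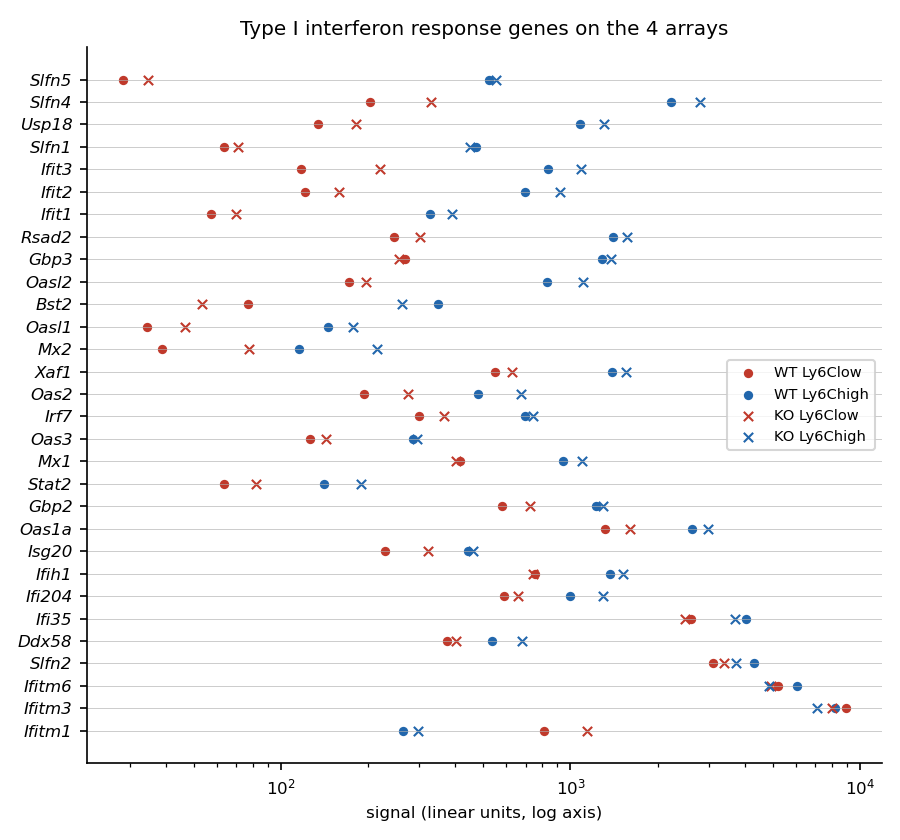
Signals (x axis, log scale) of the 30 type I interferon response genes, sorted by WT log2 ratio, on the 4 arrays; circles are WT and crosses KO, red Ly6Clow and blue Ly6Chigh. The Ly6Clow points lie left of the Ly6Chigh points in both pairs for the 20 genes called lower, and right of them for Ifitm1 (809.5 in WT Ly6Clow and 264.2 in WT Ly6Chigh).

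Coagulation and matrix genes had the next largest number of calls lower. Of 25 analysed genes 17 were kept, and 12 were called lower and 1 higher, beside 7.25% and 5.31% of all kept genes, with a median of -1.89. Besides F13a1, Vcan, Fn1 and Thbs1, the clotting factor genes F10 (237.0 in Ly6Clow and 876.2 in Ly6Chigh) and F5 (65.1 and 422.4) were lower. Hpse, the heparanase gene, was at -1.89, and Tgfbi, a matrix protein, at -1.23 with 2842.0 in Ly6Clow and 6655.8 in Ly6Chigh. Among inhibitors, Timp2, which blocks metalloproteinases, was called lower at -1.63. Serpinb2, an inhibitor of plasminogen activators, was called higher at 1.20 but fell under the rule with an offset of 32, and thrombomodulin, Thbd, was at 0.93 without a call.

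Of 16 analysed S100 and annexin genes, which encode calcium-binding proteins, 14 were kept and 9 were called lower, beside 7.25% of all kept genes, with none higher and a median of -1.14. Anxa3 had 103.8 in Ly6Clow and 1377.7 in Ly6Chigh (13.3-fold lower) and S100a10 had 437.9 and 4390.5 (log2 -3.33). S100a8 was at -1.32 while its partner in calprotectin, S100a9, was at 0.02. In the KO pair 5 of the 14 were called.

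Among 24 analysed antimicrobial and granule genes, 15 were kept and 8 were called lower and 1 higher, beside 7.25% and 5.31% of all kept genes, with a median of -1.32. Lcn2, a protein that withholds iron from bacteria, had 18.8 in Ly6Clow and 482.0 in Ly6Chigh, at least 17.3-fold lower, and Prtn3, a granule protease, was at least 7.12-fold lower. Slpi, a protease inhibitor, was at -2.43. Pglyrp1, a peptidoglycan-binding protein, was called higher, with 1180.6 in Ly6Clow and 121.8 in Ly6Chigh. The subunits of the phagocyte oxidase were not called, with Cybb at 0.18, Ncf4 at -0.02 and Ncf1 at -0.68. The summed signal of 11 analysed neutrophil markers was 1990.8 in WT Ly6Clow and 4809.7 in WT Ly6Chigh, and 1601.3 and 3696.7 in the KO pair in that order. Of these markers 4 were Present in WT Ly6Clow and 7 in WT Ly6Chigh. The 4 kept markers had 2 calls lower and 0 higher, beside 7.25% and 5.31% of all kept genes, with the lowest at -6.04 (Mmp8). The granule genes Camp, Ngp and Ltf and the receptor gene Cxcr2 were Absent on both WT arrays, with signals of at most 17.4. The part of other cells in these differences was not tested.

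Receptors of migration were divided between the subsets. The chemokine receptor genes Ccr1 and Ccr2 and the purine receptor gene P2ry12 (-1.90) were called lower. S1pr5, a sphingosine 1-phosphate receptor, was called higher, with 3404.3 in Ly6Clow and 452.3 in Ly6Chigh (7.53-fold), and so was Cxcr4, the receptor that holds cells in the marrow, with 2596.9 and 835.2 (3.11-fold). These were all the calls among the 10 kept of 20 analysed genes, with a median of 0.39. They stand beside 5.31% higher and 7.25% lower of all kept genes. Of 8 kept chemokine ligand genes, 4 were called lower and none higher, beside the same shares of all kept genes. Ccl2, the ligand of Ccr2, had 8.8 (Absent) in Ly6Clow and 337.8 in Ly6Chigh, at least 12.2-fold lower, and Cxcl10 (-2.73), Ccl9 (-1.55) and Cxcl2 (-1.18) followed.

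Among integrins and other adhesion genes 18 of 28 analysed genes were kept. Of these 4 were called higher and none lower, beside 5.31% and 7.25% of all kept genes, with a median of 0.61. They were Itgax, Spn and the tetraspanin genes Cd9 and Cd81, the last with 672.4 in Ly6Clow and 61.4 in Ly6Chigh (log2 3.45). The integrin genes Itgb1 (0.86), Itgav (0.85), Itga4 (0.65) and Itgb2 (0.59) were above 0 without a call. Itgam, which encodes the CD11b of the bead selection, was at -0.38, with 439.5 in Ly6Clow and 573.1 in Ly6Chigh.

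Of 7 kept Fc receptor genes 3 were called higher and 1 lower, beside 5.31% and 7.25% of all kept genes. Fcgr4 was higher, as was Fcgrt, the neonatal Fc receptor, with 731.9 in Ly6Clow and 305.8 in Ly6Chigh, while the high-affinity receptor gene Fcgr1 was lower, with 400.4 and 1364.7 in that order. The inhibitory Fcgr2b (-0.30), Fcgr3 (-0.43) and the shared signalling chain Fcer1g (0.38) were not called. Fcrl1, an Fc receptor-like gene of B cells, was at 1.34. Among 6 kept complement genes, beside the same shares of all kept genes, Itgax was called higher and 2 lower. These were the alternative pathway genes Cfb (at least 4.72-fold lower) and Cfp (-2.30), and the other Present probe set of Cfp was at 0.17. Among pattern recognition receptors 22 of 28 analysed genes were kept. Of these 4 were called lower and none higher, beside 7.25% and 5.31% of all kept genes. The called genes were Cd14, the lipopolysaccharide co-receptor (260.0 in Ly6Clow and 1683.6 in Ly6Chigh, 6.48-fold lower), the lectin genes Clec4a2 (10.8-fold lower) and Clec4d (-1.40) and the scavenger receptor gene Msr1 (-1.87). The Toll-like receptor genes were not called and lay between -0.71 for Tlr1 and 0.72 for Tlr13.

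Antigen presentation showed no common direction. Of 11 kept genes of MHC class II presentation 2 were lower and 2 higher, beside 7.25% and 5.31% of all kept genes, with a median of -0.50. H2-DMa, which loads peptides, had 410.0 in Ly6Clow and 1687.6 in Ly6Chigh, and H2-Ab1, a class II chain, had 468.5 and 1195.1. The higher genes were Cd83 and H2-Ob, with 160.0 in Ly6Clow and 38.9 in Ly6Chigh. The summed signal of 14 analysed conventional dendritic cell markers was 1815.8 in WT Ly6Clow and 4228.2 in WT Ly6Chigh, and 1568.7 and 4385.6 in the KO pair in that order. Of these markers 8 were kept and 5 were called lower, beside 7.25% of all kept genes. The called genes were Flt3, a growth factor receptor (at least 6.89-fold), the lectin genes Clec10a (10.6-fold) and Cd209a, the factor Batf3 and the enzyme gene Naaa. The markers Zbtb46, Xcr1 and Ccr7 had signals of at most 19.7 on the WT arrays, none of them Present. The part of dendritic cells in these differences was not tested.

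Transcription factor genes of monocytes moved in both directions, with a median of -0.05. Of 34 kept genes 8 were called higher and 7 lower, beside 5.31% and 7.25% of all kept genes. Besides Ets1 and Pparg, the higher genes included Tcf7l2, an effector of Wnt signalling, with 834.8 in Ly6Clow and 113.6 in Ly6Chigh (7.35-fold), the Notch target Hes1 (455.4 and 120.8) and the repressor Bcl6 (3583.5 and 1658.6). Pou2f2 was at 1.65. Ets2 was called at 2.15, but its other Present probe set was at -0.54. The lower genes included Maf, with 121.3 in Ly6Clow and 1080.8 in Ly6Chigh (8.91-fold), and the aryl hydrocarbon receptor gene Ahr (281.2 and 1586.5, 5.64-fold). Cebpa and Cebpd, of the C/EBP family, were lower at -1.60 and -1.78, but the other Present probe set of Cebpd was at -0.19. Irf4, at -1.03, fell short of the rule with an offset of 32. The lineage factors Spi1 (0.41), Klf4 (0.54), Klf2 (0.56), Cebpb (0.41) and Irf8 (-0.66) were not called.

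In the TGF-beta and Notch pathways 6 of 18 kept genes were higher and 1 lower, beside 5.31% and 7.25% of all kept genes, with a median of 0.31. The receptor gene Tgfbr1 had 4620.1 in Ly6Clow and 1871.5 in Ly6Chigh and stood beside the co-receptor Tgfbr3. Smad3 was at 1.16 by its brightest probe set, but at -0.32 when its probe sets were averaged. The Notch ligand gene Jag1 had 266.3 in Ly6Clow and 32.2 in Ly6Chigh (8.27-fold), and the Notch target Nrarp had 686.5 and 63.3 (10.8-fold). The receptor gene Notch1 was lower, with 139.3 in Ly6Clow and 508.9 in Ly6Chigh. Among 9 kept growth factor and vessel genes 3 were higher and 2 lower, beside the same shares of all kept genes. Vegfc, Pdgfb (2.26) and Hgf (1.57) were higher. Met, the receptor for Hgf, and Plxnd1, a semaphorin receptor with 49.7 in Ly6Clow and 539.3 in Ly6Chigh (10.9-fold), were lower.

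Most called genes of lipid uptake and storage were higher. Of 19 kept genes 5 were higher and 1 lower, beside 5.31% and 7.25% of all kept genes, with a median of 0.47. Fabp4, a fatty acid carrier gene, had 4403.2 in Ly6Clow and 151.3 in Ly6Chigh (29.1-fold). The scavenger receptor gene Cd36 had 5503.6 and 342.9 (16.1-fold), and G0s2, an inhibitor of triglyceride lipase, had 607.1 and 32.4 (18.7-fold), in the same order. Lpl, lipoprotein lipase, ran the other way with 682.3 in Ly6Clow and 2732.2 in Ly6Chigh. The apolipoprotein gene Apoe (0.97) and the cholesterol exporter Abca1 (0.90) were just under the rule. Cholesterol synthesis genes had 1 call in 13 kept genes (Mvd, lower, at -1.50), and glycolysis genes had 1 in 16, the muscle enolase gene Eno3 already named. Both counts are close to the shares over all kept genes.

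Cell cycle genes were higher or not called. Of 35 analysed genes 18 were kept, and 6 were called higher and none lower, beside 5.31% and 7.25% of all kept genes, with a median of 0.69. They were Ccnd2, the replication licensing genes Mcm5 (1.11), Mcm6 (433.1 in Ly6Clow and 121.3 in Ly6Chigh, 3.57-fold) and Mcm7 (906.1 and 321.0), the spindle gene Tacc3 and the cell cycle inhibitor gene Cdkn1b (1817.5 and 763.9). Pcna, the sliding clamp of replication, was at 0.46. When the probe sets of each gene were averaged, 3 of 11 kept genes were called.

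In the list of survival genes and the Bcl2 family, which decides whether a cell survives, 1 of 20 kept genes was called higher and 2 lower, close to the 5.31% and 7.25% of all kept genes. The survival gene Bcl2 had 1916.8 in Ly6Clow and 230.2 in Ly6Chigh (8.33-fold higher). Bcl2l11, which encodes the death-promoting Bim, had 233.3 and 729.7 in that order and was called lower at -1.65, and Bad was called right at the line. The other 17 of 20 kept genes were not called, among them Mcl1 (0.21) and the growth factor receptor gene Csf1r (0.23). Lysosome and cathepsin genes had 0 calls in 19 kept genes and lay between -0.73 for Npc2 and 0.56 for Ctsb, and with no replicate there is no test to set beside this count.

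Among inflammatory genes 4 of 20 kept were higher and 1 lower, beside 5.31% and 7.25% of all kept genes. Il1b had 2787.9 in Ly6Clow and 906.1 in Ly6Chigh, at 1.62, and Tnf had 158.3 and 38.4, at 2.04. The feedback genes Socs3 (1.09) and Nfkbiz (1.02) were called near the line, and the cytokine gene Il18 was lower at -1.10. The KO pair gave 0.62 for Il1b, 1.48 for Tnf, 0.46 for Socs3 and 0.81 for Nfkbiz, so of these only Tnf was called there. Immediate early and heat shock genes, which also respond to handling of cells, had a median of -0.04. They had 3 higher and 5 lower calls in 23 kept genes, beside the same shares of all kept genes. Dusp2 was at 2.24, the chaperone gene Hspa1b at 1.57 (its near-identical neighbour Hspa1a, whose signal it can share, was at 0.33) and Hsph1 at 1.24, while Fosb was at -2.65, Ier3 at -2.03, Atf3 at -1.07, Junb at -1.03 and Hspe1 at -1.04. Their part in the inflammatory differences was not tested.

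In the family of Ms4a and Ly6 membrane proteins 3 of 11 kept genes were higher and 5 lower, beside 5.31% and 7.25% of all kept genes. Ms4a8a (72.0 in Ly6Clow and 1151.0 in Ly6Chigh), Ms4a4b (-2.58), Ms4a4c, Ms4a6d (-1.68) and Ms4a7 (-1.40) were lower. Ly6i was higher, with 1297.4 in Ly6Clow and 276.5 in Ly6Chigh, on a probe set of a gene family with near-identical members, so its value may hold signal of its relatives. Ms4a1 and Ly6d, which are B lineage genes, were higher at 2.45 and 2.56. Iron handling genes gave 3 higher calls in 8 kept, beside 5.31% of all kept genes. These were Slc11a1 (4257.5 and 1981.2), Tfrc (1.60) and the macrophage factor Spic (1.60).

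Of 15 analysed B cell markers 5 were kept and 2 were called, both higher in Ly6Clow, beside 5.31% of all kept genes. Cd22, an inhibitory B cell receptor, had 481.9 in Ly6Clow and 41.7 in Ly6Chigh (11.6-fold), and Ms4a1, which encodes CD20, had 399.7 and 72.9. The summed signal of the 15 markers was 1914.7 in WT Ly6Clow and 686.5 in WT Ly6Chigh, and 1484.7 and 550.7 in the KO pair in that order. The defining B cell factor genes Pax5 and Ebf1 and the receptor gene Cr2 were Absent on both WT arrays, with signals of at most 28.5, and Cd79a had 24.4 (Present) in Ly6Clow and 21.0 in Ly6Chigh. Genes named above that B cells also express, such as Ikzf3, Pou2f2, Fcrl1 and H2-Ob, stand beside these values, and the part of B cells in them was not tested.

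Markers of further cell types were read in the same way. Of the T cell, NK cell, endothelial, erythroid, and eosinophil, basophil and mast cell markers analysed, 0 were kept. Their summed signals in WT Ly6Clow and WT Ly6Chigh were 128.9 and 106.4 for 13 T cell markers, 142.9 and 200.7 for 12 NK cell markers, and 227.1 and 196.8 for 12 endothelial markers. Erythroid markers summed to 33.0 and 37.4, and those of eosinophils, basophils and mast cells to 90.4 and 88.6, in that order. Platelet markers summed to 719.9 in Ly6Clow and 489.3 in Ly6Chigh, with 2 of 11 kept and none called. Red pulp macrophage markers summed to 8988.0 and 5173.7, of which Hpgd, a prostaglandin-degrading enzyme, gave 5508.0 and 2329.1, while the macrophage genes Vcam1 and Cd163 were Absent with signals of at most 18.0. Axl, a receptor for dying cells, was at least 7.88-fold lower in Ly6Clow. Plasma cell markers summed to 6324.7 and 5808.3, of which Xbp1, a factor of the secretory pathway that other cells also express, gave 5893.9 and 5259.6. They had 1 lower call in 3 kept (Irf4), and plasmacytoid dendritic cell markers had 1 higher (Ly6d) and 1 lower (Bst2) in 3 kept, with Siglech Absent. These counts and that of the platelet markers stand beside 5.31% higher and 7.25% lower of all kept genes.

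The KO pair measured the same contrast on other pools. By the same rule 384 of its 7263 kept genes (5.29%) were higher and 530 (7.30%) lower in Ly6Clow. Of the 385 genes higher in WT, 288 were also called higher in the KO pair, which is 74.8% of the WT and 75.0% of the KO list. Of the 526 lower genes, 415 were called lower in both, 78.9% of the WT and 78.3% of the KO list. The sign of the log2 ratio was the same in the KO pair for 384 of 385 higher and 524 of 526 lower genes. The median log2 ratio of the higher genes was 1.49 in KO and 1.45 in WT, and that of the lower genes -1.47 in KO and -1.55 in WT. Across the 7256 genes Pearson's r between the pairs was 0.936, as a description, since genes are not independent replicates. The pairs differed more at dim genes: the median size of the difference between their log2 ratios was 0.20 for brighter WT signals of 100 to 500 and 0.11 for the 858 brightest genes.

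**Figure D5:**
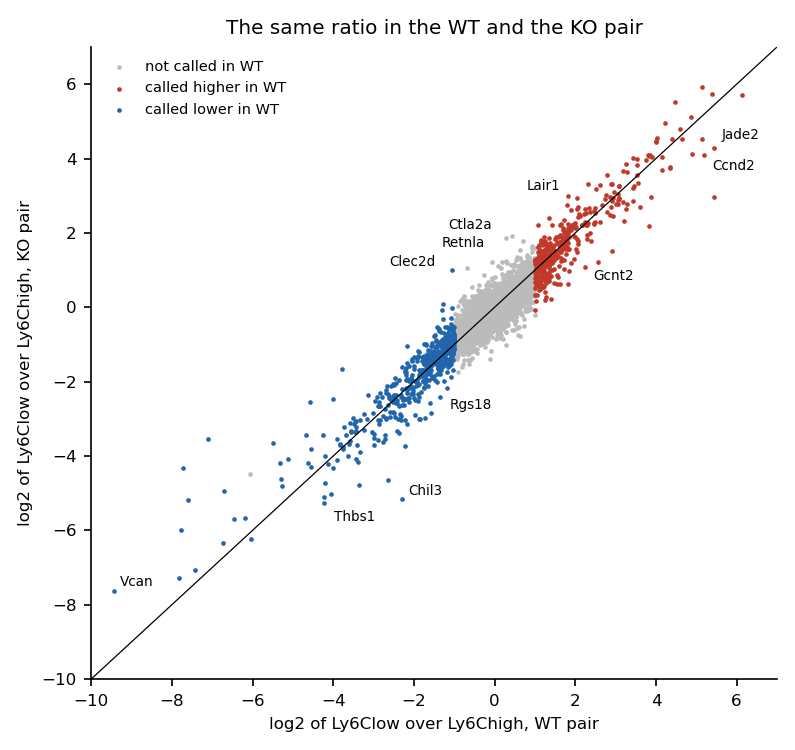
Log2 ratio of Ly6Clow over Ly6Chigh in the KO pair (y axis) against that in the WT pair (x axis) for the 7256 kept genes, 1 point per gene, coloured by the WT call; the line marks equal ratios. Most called genes lie along the line (r 0.936), and Clec2d, at -1.06 in WT and 1.01 in KO, lies above 0 on the y axis and below 0 on the x axis.

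For a few genes the subset ratio was not alike in WT and KO mice, and these differences were not tested. Clec2d, a lectin that binds an NK cell receptor, was the single gene called in opposite directions: the KO pair had 594.9 in Ly6Clow and 296.3 in Ly6Chigh, and the WT pair 477.1 and 993.9. Chil3 had 167.3 and 5932.9 in the KO pair, 35.5-fold lower in Ly6Clow, and 1603.7 and 7929.9 in the WT pair, 4.94-fold lower. Retnla, a secreted protein of the resistin family, had 506.8 and 139.8 in the KO pair, against 172.7 and 142.6 in the WT pair. The protease inhibitor gene Ctla2a was at 1.93 in KO and 0.44 in WT, and the formyl peptide receptor gene Fpr2 at 1.23 and 0.19. The inhibitory receptor gene Lair1 was at 2.99 in KO and 1.83 in WT. Ratios were lower in KO than in WT for Gcnt2 (1.08 and 2.25), Rgs18 (-2.41 and -1.36), Thbs1 (-5.25 and -4.23), Jade2 (4.29 and 5.43) and Ccnd2 (4.09 and 5.19). Jade2 and Ccnd2 were under the level of undetected probe sets in Ly6Chigh on both pairs, and so was Vcan in Ly6Clow (-7.62 and -9.43).

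An additive model of subset and genotype over the 4 arrays (limma) gave the test of the subset effect, with 1 residual degree of freedom per gene and the spread shared across genes. That residual is the difference between the WT and the KO subset ratios, so a genotype effect on the ratio counts as error. The SE and p-values of this fit therefore do not measure the spread between mice or between replicate pools of a group. At a Benjamini-Hochberg adjusted p under 0.05, 326 of 11098 genes (2.94%) were higher and 460 (4.14%) lower in Ly6Clow, and 3883 had an unadjusted p under 0.05. The smallest adjusted p was 0.0308. Of the 911 genes called in WT, 594 passed in the same direction. The WT arrays enter this fit, so neither this count nor the values of genes chosen by their WT ratio are independent of the WT calls. For the 30 largest WT differences, which were chosen that way, the limma adjusted p lay between 0.0308 and 0.0352, as a description. The limma estimate over both pairs was 3.05 ± 0.12 (SE) for Bcl2 (adjusted p 0.0308), -2.51 ± 0.14 for Ccr2 (adjusted p 0.0325) and 3.16 ± 0.26 for Fcgr4 (adjusted p 0.0377). In the lists, 18 of 30 interferon response genes were lower and 1 higher by this test, 14 of 18 Ly6Clow markers were higher, and 10 of 16 Ly6Chigh markers were lower. Fewer genes passed this test than the 2-fold rule called in many lists. Among them were the inflammatory, S100 and annexin, cholesterol synthesis, coagulation and matrix, and immediate early and heat shock lists. More genes passed than were called in the B cell, Fc receptor and MHC class II lists. Of 25 inflammatory genes 0 were higher and 1 was lower, with limma adjusted p of 0.127 for Il1b and 0.129 for Socs3, 4 of 14 S100 and annexin genes were lower, and 0 of 15 cholesterol synthesis genes passed. The count of 786 depends on the settings and was 4315 with an offset of 32 and 4590 with a trended prior.

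In the authors' deposited table for the same pair of arrays, 381 of the 7256 genes (5.25%) had a change call and a 2-fold difference toward Ly6Clow and 547 (7.54%) toward Ly6Chigh. The authors' deposited table had a change call in the same direction for 376 of the 385 higher and 516 of the 526 lower genes. Other probe sets of the called genes gave a further look within the same arrays. A probe set was counted if it reached 100 on a WT array and was Present on the array where its gene was brighter. One detected only on the other array was left out, so these counts are tilted toward agreement. Of 132 higher genes with another such probe set, 130 had all of them on the same side of 0, and of 174 lower genes 170 did. None had another such probe set 2-fold in the opposite direction (0 of 132 and 0 of 174). When the probe sets of each gene were averaged, dim ones included, some calls named above were lost: Vcan, Cd93, Gcnt2, Cebpd, Maf, Bcl6, Ets2, Fcrl1, Socs3, Slfn1, Timp2, Mcm5, Mcm6, Cdkn1b, Tacc3, Jag1, Hgf, Tfrc, Ms4a6d, Ms4a7, Hspe1 and Axl. Of these, Vcan (-3.59) and Maf (-2.35) were among those whose ratio stayed past 2-fold while the averaged signal missed the minimum or the Present call. With an offset of 32, the calls of Irf4, Oas1a, Stat2, Serpinb2, Bad, Ms4a7 and Junb were lost, and quantile normalization ended those of Nfkbiz, Oas1a and Junb.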

How the data were processed

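Splenic monocyte subsets of WT and KO mice were measured on 4 Affymetrix GeneChip Mouse arrays, 1 per group. Per the file headers, the authors' deposited signal intensities were converted from Expression Console files in the BioRetis database and the detection calls and detection p-values came from Affymetrix Console. Expression Console 1.2.1 is named in the design text and GCOS in the submitters' processing notes, and the sources used here do not name the signal algorithm. The deposited values are on a linear scale. After trimming 2% at either end each array averaged 150.0, as found from the values, and the sources used here do not state how the arrays were scaled. The authors' deposited score, a signed fold change of 1 array against another, and their change calls were made with HPCDA. A further deposited value table held the same intensities (0 of 180404 differed).

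Of 45101 probe sets, 34958 carried 1 gene symbol, 932 several and 9211 none, and only the first were used. Symbols came from the platform annotation and a RefSeq gene table (GRCm38.p6). Where a gene had several probe sets, the brightest on average across the 4 arrays stood for it. Log2 ratios were taken from the intensities as deposited, with no offset. A call needed a log2 ratio of at least 1 in size, a Present call on the brighter array and a signal there of 100 or more. The bound on folds of dim genes was chosen after the data were seen. The additive model was fitted with limma 3.58.1 (R 4.3.3) to log2 intensities of the 11098 genes Present on at least 1 array and was tested on simulated data. The number of arrays limits the precision, and counting depth has no meaning for intensities.

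The genes named were the 15 largest called ratios each way that reached 500 on the brighter array and had no probe set 2-fold the opposite way, genes of 39 lists, and, for each direction, the 6 genes whose WT and KO ratios lay farthest apart. The printed promoters were the 2 each way with the most motif matches, with windows on chromosome 18, such as those of Slc12a2, left out. Ties were broken by order, with the 15 largest differences first and then the subset markers in the order of their lists. The members, lists and rules were chosen with earlier results of these data known. Echdc1 and Leo1 were named for their place at the signal minimum. List genes without a probe set of their own were not analysed here, and the targeted gene was not analysed here. Python 3.11.15, numpy 2.4.6, pandas 2.3.3 and matplotlib 3.10.9 were used. The alternatives were median centring, quantile normalization, an offset of 32, other signal minimums, Present calls on both arrays, other ways to choose a gene's probe set and, for limma, a trended prior.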

Additional observations from a re-analysis of the deposited data

Results flagged for a closer look

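Clec2d had opposite subset ratios in the 2 genotypes. The log2 of Ly6Clow over Ly6Chigh was 1.01 in KO and -1.06 in WT, each pair with 1 array per side and each just past the 2-fold line. The Ly6Clow signals were 594.9 in KO and 477.1 in WT, and the Ly6Chigh signals were 296.3 and 993.9 in that order. The difference was not tested, and Clec2d has no other probe set here. The labels may mean that WT and KO spleens were treated with different red cell lysis buffers, in which case buffer and genotype cannot be told apart.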

How the results depend on the processing

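The additive model takes each genotype as a pair of subsets, and no pairing by replicate number was possible because the labels give none and each group had 1 array. The counts of genes higher and lower in Ly6Clow in WT (385 and 526) stayed within 1.5 times under median centring, quantile normalization, an offset of 32, a minimum on the mean of both arrays, Present calls on both arrays, probe sets averaged per gene, and the brightest probe set of the pair, and in an added alternative, chosen after the data were seen, that raised dim signals to the level of Absent probe sets. They were 750 and 904 without a signal minimum and 197 and 234 with a minimum of 500, where 328 genes in place of 703 were called the same way in both genotypes. The shares of higher calls stayed between 41.2% and 45.7%. The limma count of 786 was 4315 with an offset of 32, 4590 with a trended prior, 2021 (of 3362 tested) with a minimum of 500 and 620 with quantile normalization, so the number of genes that pass depends on these settings. The genes recomputed singly were those named for their ratios and the called genes of the lists, 167 in all. Other uncalled genes of the lists were not recomputed singly. Of the 167 genes, 165 kept their call or lack of one under median centring and 164 under quantile normalization. With an offset of 32, 158 did, and with probe sets averaged per gene 142 did, where Smad3 turned to -0.32. Dim signals limit the folds: 71 of 526 lower and 28 of 385 higher genes have only a bound.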
